A study of Mus musculus with 6 samples.

Results

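The cells described here are barcodes of the regrowing hair follicle (HF) that carry transcripts of the inner root sheath (IRS) keratins Krt25, Krt27, Krt28, Krt71 and Krt73 or of the hair shaft keratin Krt35. A barcode was taken when it had 500 to 7000 detected genes, at most 10% mitochondrial UMIs (unique molecular identifiers, each counting 1 captured transcript end) and at least 4 UMIs of these 6 keratins that made up at least 8 of every 10000 of its UMIs. Of the 31860 cells that passed the limits on genes and mitochondrial UMIs in the 3 libraries of 2 d to 6 d post depilation (dpd), 702 met the keratin limit, with 2 at 2 d, 543 at 4 d and 157 at 6 d. Over all 6 libraries of the series, 55177 of 61031 barcodes were kept. The libraries were made from dorsal skin of wildtype male FVB mice of 55 to 57 days whose back hair had been shaved and waxed off, with 1 library before regrowth (0 h) and others at 4 h and 16 h and on days 2, 4 and 6. Cells of 2 mice were mixed in equal number for each, so a time point is 1 library, its mice cannot be told apart, and no test between time points was made. All animals carried the same genotype. The libraries held 73894299, 72634390, 112370376, 99686327, 95678280 and 88632160 UMIs in order of time.

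When a resting HF re-enters growth, progenitors of the hair germ and matrix divide next to the dermal papilla and give rise to concentric layers. The outer of these form the IRS, a sheath that hardens around the growing hair and guides it upwards, and the inner ones form the cuticle, cortex and medulla of the hair shaft. Each layer makes its own pairs of type I and type II keratins, which assemble into filaments that trichohyalin and transglutaminases cross-link in the IRS, while the shaft fills with hair keratins and keratin-associated proteins. GATA3 is a transcription factor needed for the IRS, and HOXC13 and LEF1 are factors of the shaft-forming matrix.

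The 6 keratin genes lie in the keratin clusters of the mouse genome (mm10, with gene models of the annotation release vM21). The type I genes Krt25, Krt27, Krt28 and Krt35 are on chromosome 11 between 99315516 and 100096241, and the type II genes Krt71 and Krt73 are on chromosome 15 between 101733949 and 101802346. The RefSeq promoter windows of GRCm38.p6, from 250 bases before to 50 bases after a gene's start, matched 5 of the 6 genes by symbol and gave none for Krt35. The letters that GATA factors bind, searched as AGATAA and as AGATAG and also with T in place of the leading A, were found on either strand in 4 of these 5 windows and in 29.8% of 32851 windows of the same length. The Krt28 window held none of them and had CTTTGA, the core of LEF1 and TCF sites, once on each strand. At least 1 match on either strand was found in 16.0% of windows and in none of the other 4 keratins. The letters TAATTA stood in 4 of the 5 windows and in 5.29% of all, and TATAAA in 5 of 5 and in 13.6% of all. The stretches below show these letters, with GATA letters in capitals for 4 keratins and the reverse complement of CTTTGA in capitals for Krt28. They were chosen because Gata3 and Lef1 separate cells with Krt35 highest from cells with an IRS keratin highest, as given below. Neither gene was called between cells with Krt28 highest and cells with Krt25, Krt71 or Krt73 highest. The stretches are written 5′ to 3′ on the minus strand, on which all 5 genes lie, and a match is a description of the letters and not of a bound site.
Krt25 (chr11:99323128-99323157): gatccatttctcAGATAAacactaacctag
Krt27 (chr11:99351284-99351313): gctccctcccagAGATAAcaaacatcaagg
Krt28 (chr11:99374907-99374936): gtgtataaaagcTCAAAGaacccacaagca
Krt71 (chr15:101743305-101743334): agcgggttaattAGATAAgacccaaattac
Krt73 (chr15:101802525-101802554): cccatgctaataAGATAAgactcaattaca
The GATA letters began 194, 183, 225 and 182 bases before the starts of Krt25, Krt27, Krt71 and Krt73, and the Krt28 match began 21 bases before its start. Reads from these genes are separable for the most part: over the last 500 bases of each transcript, where the 3′ assay reads, Krt27 and Krt28 shared 4.04% of their stretches of 31 bases, and the other 4 keratins shared none with the 5 others.

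The keratin-bearing cells were present at 4 d and 6 d and nearly absent before. They made up 4.38% of the kept cells at 4 d (exact Clopper-Pearson 95% interval 4.02 to 4.75) and 1.58% at 6 d (1.35 to 1.85). Under the same limits the earlier libraries gave 0 of 6925 cells at 0 h, which allows a share of up to 0.0433% when 3 cells are taken as the limit of a count of 0, 1 of 7663 at 4 h, 2 of 8729 at 16 h and 2 of 9534 at 2 d. All intervals on shares and levels cover counting error only and not the spread between mice. The single cells of the earlier times carried few keratin UMIs. At 2 d, 1 cell had 13 UMIs of Krt73 and 3 of Krt28, and the other had 6 of Krt35 and 2 of Krt28. The 4 h cell had 6 UMIs of Krt27 and 3 of Krt28, and the pair at 16 h had 7 and 11 of Krt25 and none of the others.

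The limit itself left a gradual edge. At 4 d, 76 cells lay between 8 and 10 keratin UMIs per 10000 and 81 kept cells with at least 4 keratin UMIs lay just outside, between 6 and 8. At 6 d these numbers were 14 and 17, and a further 7 and 8 cells had more than 8 per 10000 but fewer than 4 UMIs. The median cell had 17.5 keratin UMIs per 10000 at 4 d and 35 at 6 d, and the richest had 1009 and 640. The keratin-bearing cells held 89.6% and 90.4% of all keratin UMIs of the kept cells. They were also deeper than the rest, with a median of 9749 UMIs at 4 d and 9250 at 6 d against 6189 and 7144 in the other kept cells. At least 1 keratin UMI was found in 15.1% and 9.62% of all kept cells at 4 d and 6 d. Among T cells of the same libraries, which should lack these keratins, the shares were 5.59% of 876 cells and 3.80% of 316 cells at median depths of 2560 and 2667 UMIs. Of barcodes by sequence, 37 kept ones were shared between 2 d and 4 d, 30 between 2 d and 6 d and 23 between 4 d and 6 d, and no barcode met the keratin limit in more than 1 library.

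**Figure D1:**
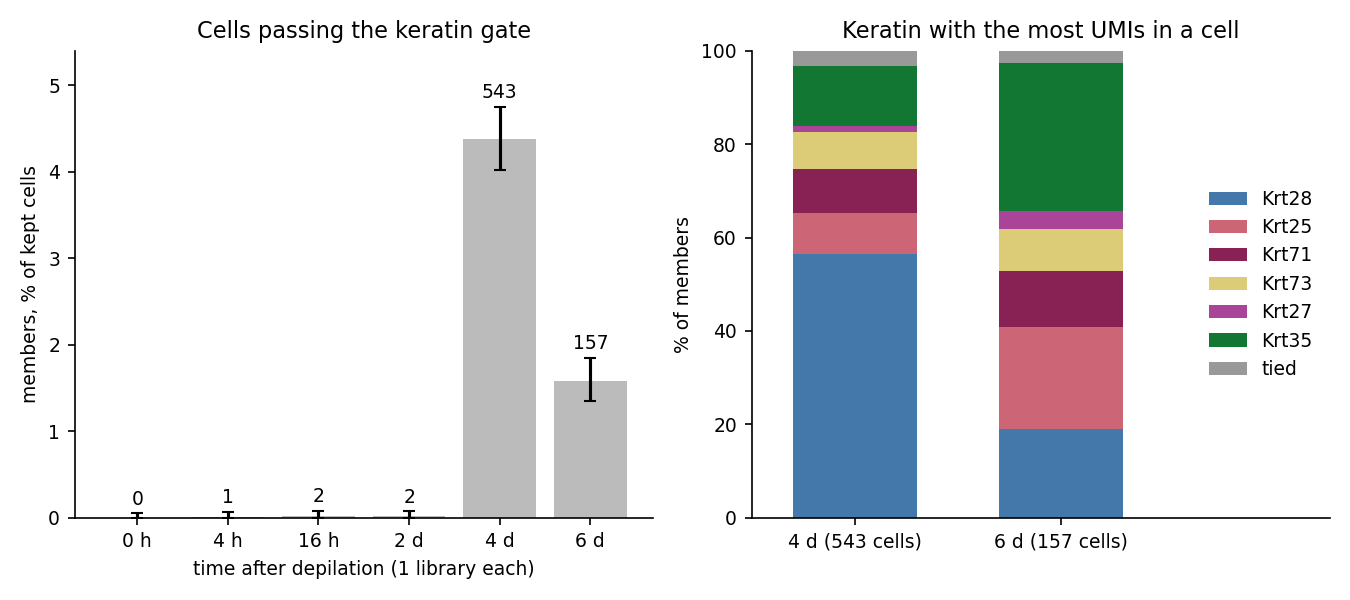
Left, share of kept cells that met the keratin limit in each of the 6 libraries (percent, bars from 0, error bars are exact 95% intervals for counting error, numbers are cells). Right, the keratin with the most UMIs in each cell, as percent of the 543 cells at 4 d and the 157 cells at 6 d, where the Krt28 share is 56.5% and 19.1% and the Krt35 share 12.7% and 31.8%.

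The label of the cells held for genes that the limit did not use, with exceptions that matter for the values below. Relative to the other kept cells of the same library, the summed cells were richer in Prr9, Padi3 and Shh, and in Krt86, Lef1 and Msx1 of the matrix and shaft. Of 16 further IRS genes 9 were higher and 3 lower (Casp14, Hey1 and Rptn), and without the mixed barcodes, defined below, 9 of 14 were higher and Hey1 alone lower. Mixed barcodes were here left out of both sides. The other kept cells thereby went from 11867 to 9710 at 4 d and from 9759 to 7090 at 6 d. A changed call was not traced to either side. Of 7 hair keratins 4 were higher and none lower, or 5 without the mixed barcodes. Of 30 matrix transcription factors 12 were higher and 5 lower (Foxq1, Bcl11b, Runx3, Elf5 and Barx2), and without the mixed barcodes 13 and 4, with Runx3 and Elf5 no longer called and Prdm1 called lower. Sonic hedgehog (Shh), the ligand made by hair germ and matrix cells, stood at 62.8 counts per 1000000 (CPM) at 4 d and 61.6 CPM at 6 d against 1.12 and 0.292 CPM in the other cells. Msx1, a homeobox gene of the matrix, stood at 132 and 92.1 CPM against 5.33 and 2.53 CPM. The basal keratin Krt14 was lower, with 1718 and 1313 CPM against 9522 and 8397 CPM. This contrast is the one that chose the cells, so these values are a description, as is the count of genes past 2-fold in both libraries, with 1064 of 15508 higher (6.86%) and 1273 lower (8.21%).

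Some barcodes also held RNA of other cell types. A barcode was called mixed when it had at least 20 UMIs of T cell, melanocyte or Langerhans cell markers or at least 50 UMIs per 10000 of the epidermal genes Krt10, Krtdap, Lor and Flg. This held for 30 of the 543 cells at 4 d and for 26 of the 157 at 6 d. At 4 d, 10 carried T cell markers, 7 melanocyte markers, 2 Langerhans markers and 13 the epidermal genes, and at 6 d these numbers were 1, 0, 1 and 24. The epidermal genes thus marked 2.39% and 15.3% of the cells, against 7.50% and 22.6% of all kept cells. A doublet score marked 73 and 35 of the cells (13.4% and 22.3%, against 11.1% and 8.61% of all kept cells), among them 17 and 13 of the mixed ones. Without the mixed barcodes, the summed level of the 9 T cell markers went from 113 to 7.46 CPM at 4 d and from 31.1 to 3.47 CPM at 6 d. That of the 12 suprabasal epidermal genes, of which Krtdap was the most abundant at 6 d, went from 30916 to 2248 CPM at 6 d. These lists hold the genes that define a mixed barcode, among them all the T cell markers but Cd52. Both falls thus follow in part from the definition and do not measure how clean the remaining cells are. The 10 fibroblast markers summed to 714 and 457 CPM, but 596 and 431 CPM of this was decorin (Dcn), and Dpt was at 0 in both libraries, Pdgfra at 0 at 4 d, and Col1a1 and Col3a1 at 0 at 6 d. The 5 endothelial markers summed to 0.169 and 1.67 CPM. Results are given with the mixed barcodes and, where it changes them, without.

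The cells split by their highest keratin in different proportions at 4 d and 6 d. At 4 d Krt28, a type I keratin of the IRS, was highest in 307 cells (56.5%, 95% interval 52.3 to 60.8), followed by Krt35 in 69, Krt71 in 52, Krt25 in 47, Krt73 in 43 and Krt27 in 7, with 18 tied. At 6 d Krt35 led with 50 cells (31.8%, 24.6 to 39.8), followed by Krt25 in 34, Krt28 in 30, Krt71 in 19, Krt73 in 14 and Krt27 in 6, with 4 tied. The Krt35 share was 12.7% (10.0 to 15.8) at 4 d, below that at 6 d with intervals that do not overlap, but with 1 library per time the spread between mice is unknown. Cells with any IRS keratin on top, ties among these included, are called IRS-keratin cells from here on (471 and 106), and cells with Krt35 on top are called Krt35 cells (69 and 50). The 3 cells at 4 d and 1 cell at 6 d in which Krt35 tied with another keratin were left out of both.

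Keratin load went with the kind of keratin. Krt28 cells carried a median of 13.9 keratin UMIs per 10000 at 4 d and 14.6 at 6 d, near the lower limit, while Krt25 cells carried 135 and 56.1, Krt71 cells 40.5 and 61.7, Krt73 cells 17.6 and 34.2, and Krt35 cells 31 and 37.8. The richest cell of 4 d had Krt25 on top. Krt25 in the IRS-keratin cells ranged from 0 to 460 UMIs per 10000 at 4 d with a median of 1.56, and from 0 to 289 with a median of 8.51 at 6 d. Krt71, a type II keratin of the IRS, had a median of 0 and a highest value of 328 at 4 d, and a median of 3.63 and a highest value of 289 at 6 d. Krt28 was spread more evenly, with medians of 10.3 and 8.24 and highest values of 72.7 and 96.6.

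Summed over the IRS-keratin cells, Krt25 stood at 1190 CPM at 4 d and 2614 CPM at 6 d, Krt71 at 931 and 2202 CPM, Krt73 at 504 and 734 CPM and Krt27 at 356 and 959 CPM. Krt28 stood at 1306 and 998 CPM. All but Krt28 were thus higher in the 6 d library, where Krt28 cells were fewer. In Krt35 cells, Krt35 stood at 4197 and 4242 CPM, and Krt28 was the next of the 6 at 556 and 265 CPM. Without the mixed barcodes Krt35 stood at 4518 and 5619 CPM and Krt28 at 582 and 291 CPM. At 6 d the 50 Krt35 cells held 622346 UMIs, of which 329935 lay in the 42 cells that were not mixed. Krt71 and Krt73 were the keratins found in the fewest Krt35 cells. Krt71 was seen in 0 of 69 cells at 4 d and 5 of 50 at 6 d, with 8.03 CPM, and Krt73 in 6 of 69 and 2 of 50, where 1 cell gave 94.6% of its UMIs at 6 d.

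How often type I and type II keratins of the IRS were found in the same cell differed by class and with depth. An IRS type I keratin was seen in 96.7% of the cells at 4 d and 87.3% at 6 d, a type II keratin in 45.7% and 54.1%, and both in 42.7% and 50.3%. With each cell thinned at random to 2000 UMIs, both were seen in 30.7% and 41.2%. By class and with all UMIs, both were seen in 87.3% and 85.1% of Krt25, Krt71 and Krt73 cells, in 30.3% and 40% of Krt28 cells and in 7.25% and 8% of Krt35 cells. A type II keratin without a type I keratin was seen in 16 of 543 and 6 of 157 cells. Krt35 was seen with Krt28 in 115 cells at 4 d and 43 at 6 d, with Krt25 in 40 and 25, and with Krt71 in 5 and 11. After the same thinning, Krt35 and Krt71 were together in 3 of 541 and 1 of 153 cells. Of the cells with at least 1 UMI of Krt35 and of an IRS keratin, 67 of 117 at 4 d and 36 of 53 at 6 d had Krt35 on top.

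**Figure D2:**
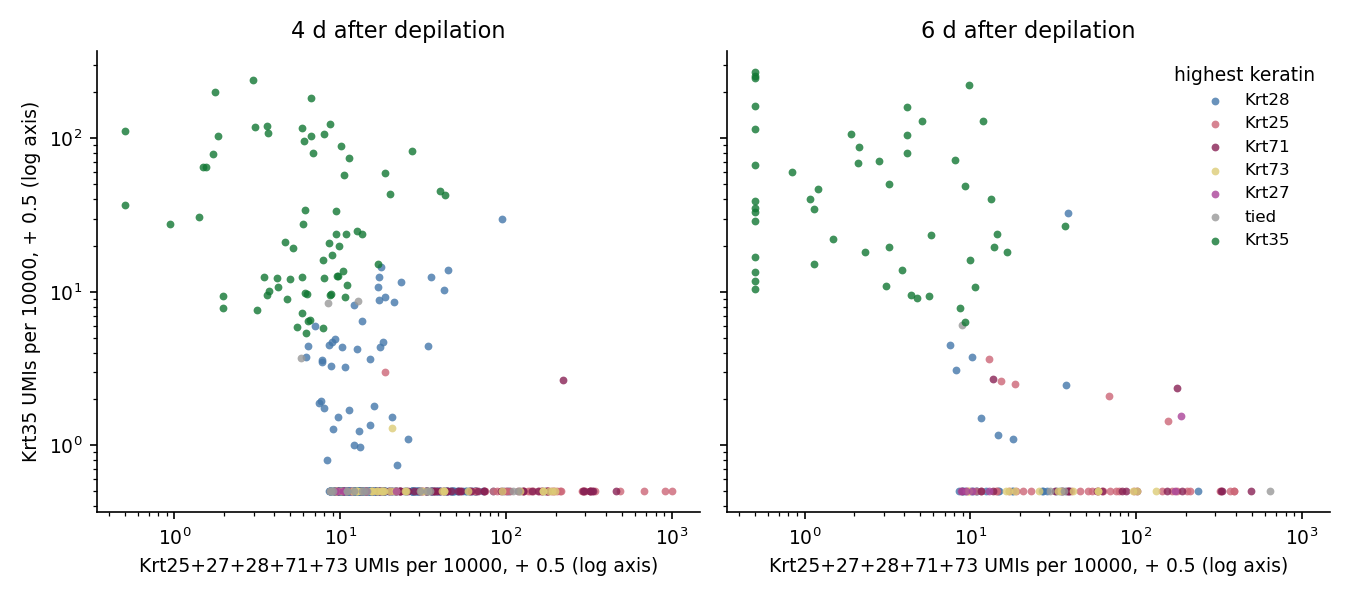
Each point is 1 cell at 4 d (left, 543 cells) or 6 d (right, 157 cells), with the summed UMIs of Krt25, Krt27, Krt28, Krt71 and Krt73 per 10000 on the x axis and those of Krt35 on the y axis, both plus 0.5 on log axes, coloured by the highest keratin. Cells with at least 100 UMIs per 10000 of IRS keratins have at most 2.16 (4 d) and 1.86 (6 d) of Krt35, and those with at least 100 of Krt35 have at most 8.17 and 11.5 of IRS keratins.

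Krt35 cells were next set against IRS-keratin cells within each library. The same cells' keratin counts define both groups, so no test was made, and a gene was called when its CPM differed at least 2-fold in the same direction at 4 d and at 6 d, among 9198 genes with at least 10 UMIs over both groups in each library. By this rule 162 genes were higher (1.76%) and 285 lower (3.10%) in Krt35 cells. Under median-ratio scaling in place of CPM the split was 212 higher and 235 lower. Without the mixed barcodes 167 were higher and 360 lower, of which 120 and 185 were called both ways. Over all tested genes the median log2 ratio was −0.05 at 4 d and −0.175 at 6 d.

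Genes of the hair shaft were higher in Krt35 cells. Of 4 other hair keratins with enough counts, 3 were called higher and none lower, namely Krt86, Krt36 and Krt87, with a list median of 3.69 on the log2 scale at 4 d and 3.88 at 6 d. Krt86, a type II hair keratin of the cortex, stood at 67.8 CPM in Krt35 cells and 4.20 CPM in IRS-keratin cells at 4 d, and at 48.2 and 0 CPM at 6 d. This is 16.1-fold higher at 4 d and at least 18.9-fold at 6 d, with the absent side set at 3 UMIs. The IRS keratin Krt74 and the hair keratin Krt85 were not analysed here.

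Of 11 shaft and cuticle proteins, 8 were higher and 1 lower, with medians of 1.75 and 1.83 on the log2 scale. The hair-shaft desmosomal cadherin Dsg4 stood at 14.7 against 0.572 CPM at 4 d and at 49.8 against 2.55 CPM at 6 d, and the keratin-associated protein Krtap8-1 at 45.7 against 2.67 CPM and at 33.7 against 2.55 CPM. Selenbp1, a selenium-binding protein, stood at 44.2 against 5.34 CPM and at 214 against 4.25 CPM. The metallothionein Mt4 stood at 1197 against 366 CPM and at 1776 against 501 CPM, and the claudin Cldn10 at 556 against 165 CPM and at 188 against 68.9 CPM. S100a3, a calcium-binding protein of the hair cuticle, stood at 472 against 134 CPM and at 3607 against 288 CPM. Its 6 d ratio of 12.5 became 4.40 without the mixed barcodes. The exception was Crym, joined by Gsdma without the mixed barcodes. Crym stood at 1.47 against 12.2 CPM and at 14.5 against 96.1 CPM. Without the mixed barcodes it had 0 UMIs in Krt35 cells at 6 d.

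The transcription factors of the matrix split in both directions, with 4 of 27 higher and 6 lower. Hoxc13, a homeobox regulator of hair keratin genes, stood at 721 CPM (exact Poisson 95% interval 658 to 788) in Krt35 cells and 61.2 CPM in IRS-keratin cells at 4 d, and at 360 and 19.6 CPM at 6 d. It was higher 11.8-fold and 18.4-fold, the largest of the 4 ratios in each library. Lef1, which carries the Wnt signal to its target genes, was higher 3.05-fold and 3.40-fold, Trps1 5.79-fold and 3.39-fold, and Msx2 2.15-fold and 2.53-fold. Gata3 went the other way, with 51.6 against 282 CPM at 4 d and 88.4 against 386 CPM at 6 d. It was also called lower without the mixed barcodes, where Gata3 of Krt35 cells was in addition called lower at 6 d than at 4 d. Foxe1, a forkhead factor, had 0 UMIs in Krt35 cells of both libraries and 77.8 and 17.0 CPM in IRS-keratin cells, which is at least 17.6-fold and 3.53-fold lower. Dlx1, Dlx2, Tfap2b and Cux1 were lower too, and the call of Cux1 was lost without the mixed barcodes, where its 6 d ratio was 1.79.

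Further IRS genes were lower in Krt35 cells, with 6 of 12 called (Tchh, Gata3, Cux1, Prr9, Nkd2 and Ctsc) and none higher, and list medians of −1.93 and −1.81. Without the mixed barcodes 6 of 10 were called, with Nectin3 in place of Cux1. Trichohyalin (Tchh), the matrix protein of the hardened IRS, stood at 1.47 CPM (0.0373 to 8.21) in Krt35 cells and 96.2 CPM in IRS-keratin cells at 4 d, and at 8.03 and 1493 CPM at 6 d. Cathepsin C (Ctsc), a lysosomal protease, stood at 8.85 and 336 CPM and at 14.5 and 266 CPM. Its 4 d ratio of 38.0 and its 6 d ratio of 18.4 were larger without the mixed barcodes, where Krt35 cells had 0 UMIs at 4 d, at least 69.6-fold lower, and 3.03 CPM (1 UMI) against 302 CPM at 6 d. Of 8 companion layer genes, which mark the cells just outside the IRS, 4 were lower (Krt75, Krt17, Gjb2 and Idh1). Krt75 stood at 7.37 against 143 CPM and at 6.43 against 77.4 CPM, and Krt17 at 560 against 2469 CPM and at 361 against 1326 CPM.

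A few signalling genes were called, where 1.76% of all tested genes were higher and 3.10% lower. Kitl, the ligand by which keratinocytes reach melanocytes, stood at 368 against 56.3 CPM at 4 d and at 227 against 38.3 CPM at 6 d, so that Krt35 cells were higher 6.55-fold and 5.92-fold. Of 13 Notch pathway genes the ligand Jag1 was higher (215 against 36.6 CPM and 135 against 36.6 CPM) and the target Hes5 lower. Of 24 Wnt pathway genes 2 were higher and 3 lower. The higher ones were Lef1 and Notum, an enzyme that inactivates Wnt ligands, and the lower ones Wnt11, the receptor gene Lgr4 and the inhibitor Nkd2. Of 14 BMP pathway genes the decoy receptor Bambi was called, with 261 against 61.4 CPM and 175 against 62.1 CPM, and without the mixed barcodes also Id2 as higher and Id4 as lower. Of 8 Hedgehog genes Gas1 was called lower, and not without the mixed barcodes. Shh itself was level at 4 d with 63.4 against 63.0 CPM and stood at 17.7 against 85.0 CPM at 6 d.

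Among the other genes with the largest ratios, Krt35 cells were higher in Cybrd1, an iron reductase (63.4 against 4.01 CPM and 70.7 against 4.25 CPM), in the netrin receptor Unc5b (97.3 against 9.16 CPM and 121 against 10.2 CPM), in the phosphatase Ptpre, in Whrn and in the gene models Gm49425 and Hoxb5os. Rnaset2a was also among them, but its near-identical copy makes its count uncertain. They were lower in Creb5 (8.85 against 98.3 CPM and 3.21 against 56.1 CPM), in the protease inhibitor Timp3 (13.3 against 152 CPM and 8.03 against 65.5 CPM), in the Hox genes Hoxb8 and Hoxb9, and in Itih5, Plxna2 and Calhm5. The call of H2-Ab1, an MHC class II gene, was lost without the mixed barcodes. Of 16 desmosome genes Dsg4 and Pkp2 were higher and none lower, but without the mixed barcodes Dsg1a, Dsc1 and Evpl were lower. Of 16 basal and outer root sheath genes Cxcl14 and Trp63 were higher and Sox9 lower. Of 20 DNA replication genes and of 16 cyclins and CDK inhibitors 4 each were lower and none higher, and without the mixed barcodes 2 each (Mcm5 and Rrm1, Ccnb1 and Cdk1). Of 10 cycling markers Cenpf and Birc5 were lower, and without the mixed barcodes Cenpf, Mki67, Prc1, Tpx2 and Nusap1, but not Birc5. Trp63, the master factor of stratified epithelia, stood at 298 against 134 CPM and at 175 against 85.0 CPM.

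**Figure D3:**
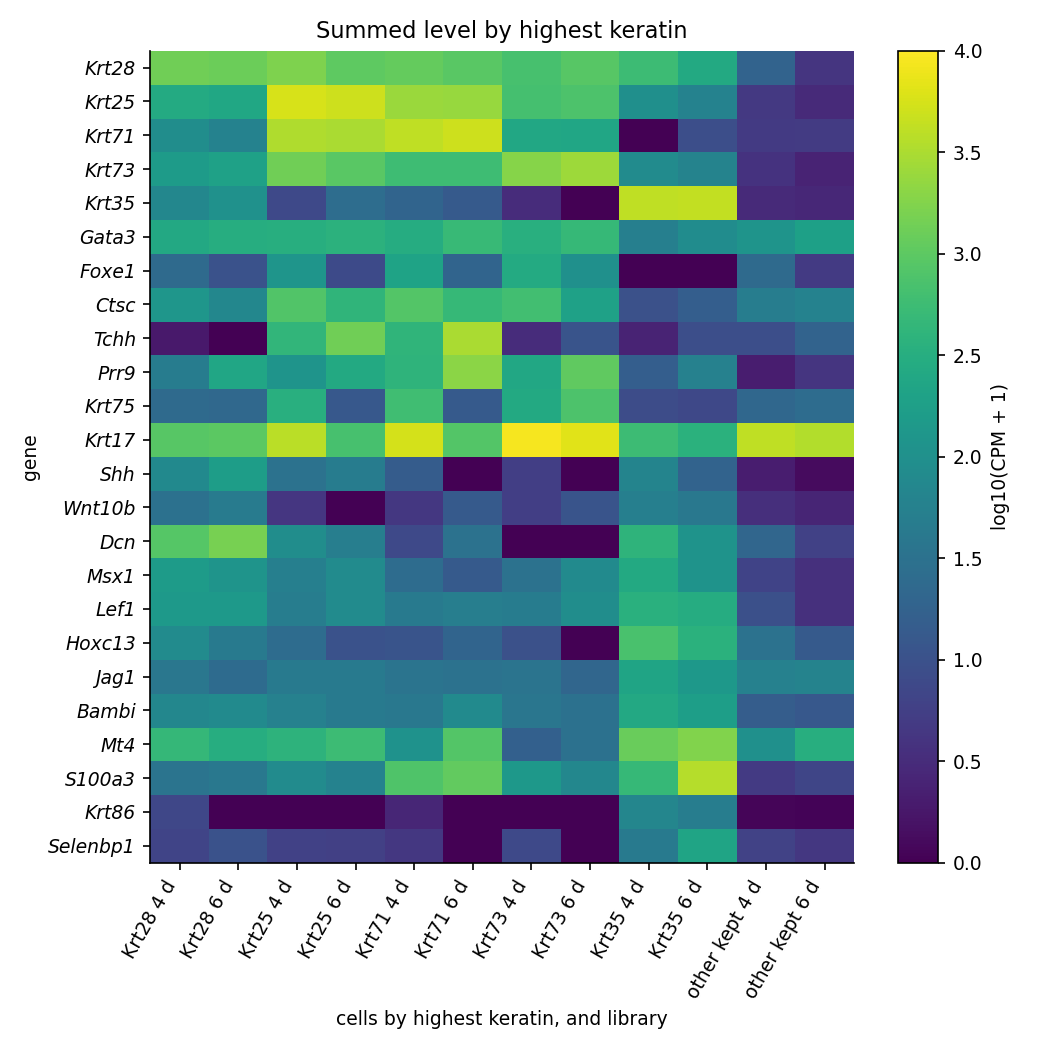
Summed level of 24 genes as log10(CPM + 1), with cells grouped by their highest keratin at 4 d and 6 d and the other kept cells in the last 2 columns. Hoxc13, Lef1, Jag1, Mt4, Krt86 and Selenbp1 are brightest in the Krt35 columns, Tchh and Ctsc in the Krt25 and Krt71 columns, and Dcn in the Krt28 columns.

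The IRS-keratin cells were not uniform. Krt28 cells (307 and 30) were set against Krt25, Krt71 and Krt73 cells together (142 and 67) by the same rule, a comparison chosen after the data were seen. Of 7962 genes, 268 were higher (3.37%) and 563 lower (7.07%) in Krt28 cells, and without the mixed barcodes 159 and 333, of which 152 and 271 were called both ways. Over all tested genes the median log2 ratio was 0.023 and 0.061.

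DNA replication genes were higher in Krt28 cells. Of 19 DNA replication genes 18 were higher and none lower, with list medians of 1.38 and 1.65 on the log2 scale, and 14 remained called without the mixed barcodes. Mcm5, a subunit of the replicative helicase, stood at 123 against 29.9 CPM at 4 d and at 93.8 against 23.2 CPM at 6 d. The cyclin gene Ccnd2 stood at 939 against 169 CPM and at 986 against 348 CPM, and the CDK inhibitor gene Cdkn1a at 151 against 419 CPM and at 115 against 431 CPM. None of the 10 cycling markers was called, as Mki67 stood at 385 against 196 CPM at 4 d and at 275 against 278 CPM at 6 d.

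Of 21 listed Wnt pathway genes Wnt10b and Wif1 were higher and Wnt11 and Nkd2 lower in Krt28 cells, beside 3.37% and 7.07% of all tested genes. Wnt3 was also higher without the mixed barcodes. Shh was higher in Krt28 cells and stood at 79.2 against 17.7 CPM and at 166 against 29.0 CPM. The Wnt ligand gene Wnt10b stood at 30.4 against 3.66 CPM and at 45.4 against 4.35 CPM, and Wnt6 at 69.6 against 10.4 CPM and at 66.6 against 11.6 CPM. The secreted Wnt inhibitor gene Wif1 stood at 23.1 against 1.22 CPM at 4 d and at 227 against 1.45 CPM at 6 d. Dcn, a small proteoglycan best known from connective tissue, ranked first by the smaller of its ratios. It stood at 887 CPM (856 to 919) against 36.0 CPM at 4 d and at 1534 CPM against 39.1 CPM at 6 d, which is 24.7-fold and 39.2-fold higher. At least 1 Dcn UMI was found in 63.5% and 73.3% of Krt28 cells and in 2.37% and 0.686% of the other kept cells, and no single cell gave more than 3.85% of its UMIs at 4 d or 15.6% at 6 d. Ptn, Tspan18, Kremen2, Ascl4 and Tex9 were also higher, while the calls of Cd74 and H2-Aa were lost without the mixed barcodes.

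Desmosome and further IRS genes were lower in Krt28 cells. Of 13 desmosome genes, which hold keratinocytes together, 10 were lower and none higher, also without the mixed barcodes. Desmoplakin (Dsp) stood at 299 against 1142 CPM and at 321 against 1065 CPM, Perp at 858 against 2915 CPM and at 735 against 2341 CPM, and Dsg1a at 50.3 against 307 CPM and at 87.7 against 323 CPM. Of the further IRS genes 7 of 11 were lower and none higher, and 5 of 9 without the mixed barcodes, where Tgm1 and Casp14 were no longer called. Tchh stood at 0.877 CPM (0.181 to 2.56) against 305 CPM at 4 d, and had 0 UMIs against 1571 CPM at 6 d. Ctsc stood at 125 against 777 CPM and at 69.6 against 397 CPM, and Padi3, an enzyme that modifies trichohyalin, at 3.21 against 26.8 CPM and at 9.08 against 75.4 CPM. Gata3, in contrast, differed little, with 262 against 317 CPM and 309 against 413 CPM, as did Cux1. Of 11 Notch pathway genes the receptor genes Notch2 and Notch3 and the target Hes5 were lower, and Jag2 was higher, a call lost without the mixed barcodes. Foxe1 was lower. Of 12 suprabasal epidermal genes 9 were lower, and 6 without the mixed barcodes. Tesc, Elovl4, Cpm, Ly6g6c, Ly6d and Krt77 were among the genes with the largest ratios in this direction, while the calls of Klk5, Pla2g2f, Hal, Ptgs1 and Acer1 were lost without the mixed barcodes. The ratios of Krt77, 54.9 and 27.7, became 3.44 and 2.13.

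Cells were then put in ranges of 8 to 20, 20 to 100 and 100 or more keratin UMIs per 10000, in both groups, as a description. Krt28 cells made up 212 of 269, 89 of 146 and 6 of 56 IRS-keratin cells of the rising ranges at 4 d. At 6 d they made up 19 of 41, 10 of 42 and 1 of 23. Keratin load and highest keratin were therefore not told apart in these cells. At 4 d, Ctsc in IRS-keratin cells stood at 114, 389 and 1449 CPM over the rising ranges, Tchh at 2.57, 6.31 and 889 CPM and Gata3 at 193, 390 and 479 CPM. Over the same ranges Dcn stood at 844, 398 and 7.32 CPM and Ccnd2 at 875, 509 and 156 CPM. At 6 d Ctsc stood at 39.9, 366 and 549 CPM, while Gata3 was highest in the middle range with 257, 513 and 430 CPM, or 201, 562 and 669 CPM without the mixed barcodes. Tchh stood at 85.7, 16.5 and 6791 CPM, and at 5.51, 22.2 and 4638 CPM without the mixed barcodes, so that its RNA was concentrated in the 23 cells of the top range. The highest single cell held 29.9% of the Tchh UMIs of the IRS-keratin cells at 6 d and 36.9% at 4 d.

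In Krt35 cells at 4 d, Hoxc13 stood at 486, 777 and 1134 CPM over the rising ranges, S100a3 at 76.3, 464 and 1516 CPM and Jag1 at 116, 223 and 443 CPM. Krt5, the keratin of basal cells, stood at 1918, 1111 and 72.2 CPM, and Dcn at 915, 136 and 0 CPM. Hoxc13, S100a3 and Jag1 were thus highest, and Krt5 and Dcn lowest, where Krt35 was highest. At 6 d the same order was seen for Hoxc13 (158, 412 and 729 CPM) and for Lef1 (192, 284 and 762 CPM). S100a3 at 6 d stood at 3652, 3573 and 3663 CPM with the mixed barcodes and at 45.9, 1929 and 3663 CPM without them. Gata3 at 6 d stood at 69.0, 114 and 0 CPM with them and at 23.0, 32.9 and 0 CPM without.

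To set division on 1 depth, each cell was thinned to 2000 UMIs and taken as cycling from 2 UMIs upwards, summed over 10 genes such as Mki67 and Top2a. Of the keratin-bearing cells 73.2% were cycling at 4 d (95% interval 69.2 to 76.9) and 52.3% at 6 d (44.1 to 60.4), against 34.4% and 24.7% of the other kept cells. Without thinning these were 90.2% and 75.2%, against 57.1% and 58.5%. Krt28 cells had the highest share of the larger groups with 90.2% (86.3 to 93.3) at 4 d and 80.0% (61.4 to 92.3) at 6 d. Krt25, Krt71 and Krt73 cells together had 46.5% (38.1 to 55) and 53.8% (41.0 to 66.3), and Krt35 cells 50.7% (38.4 to 63.0) and 33.3% (20.4 to 48.4).

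The share was lower at higher keratin load in Krt35 cells and lowest in the top range of IRS-keratin cells. At 4 d it was 83.3%, 77.9% and 41.8% over the rising ranges of IRS-keratin cells and 82.6%, 50% and 0% of Krt35 cells, and at 6 d 68.3%, 77.5% and 17.4% and 61.5%, 32.0% and 0%. The ranges of IRS-keratin cells also differed in their part of Krt28 cells, as given above. None of 14 Krt35 cells with the highest load was cycling at 4 d (upper end of the exact interval 23.2%) and none of 10 at 6 d (30.9%). Without thinning, 6 of 14 and 1 of 11 of these cells had 2 marker UMIs, as did 75% and 60.9% of the IRS-keratin cells of the top range. Mki67 had 0 UMIs in the Krt35 cells of the top range in both libraries. In the IRS-keratin cells of that range Mki67 stood at 139 and 83.6 CPM, or at 139 and 148 CPM without the mixed barcodes. T cells of the same libraries, which divide themselves and are shallower, had shares of 46.1% and 57.0%, and Langerhans cells, which can also divide, 44.6% of 157 and 20.3% of 158 cells. The part of free RNA in these calls was not tested. Leaving out the mixed barcodes gave 74.4% and 56.7% for all keratin-bearing cells.

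**Figure D4:**
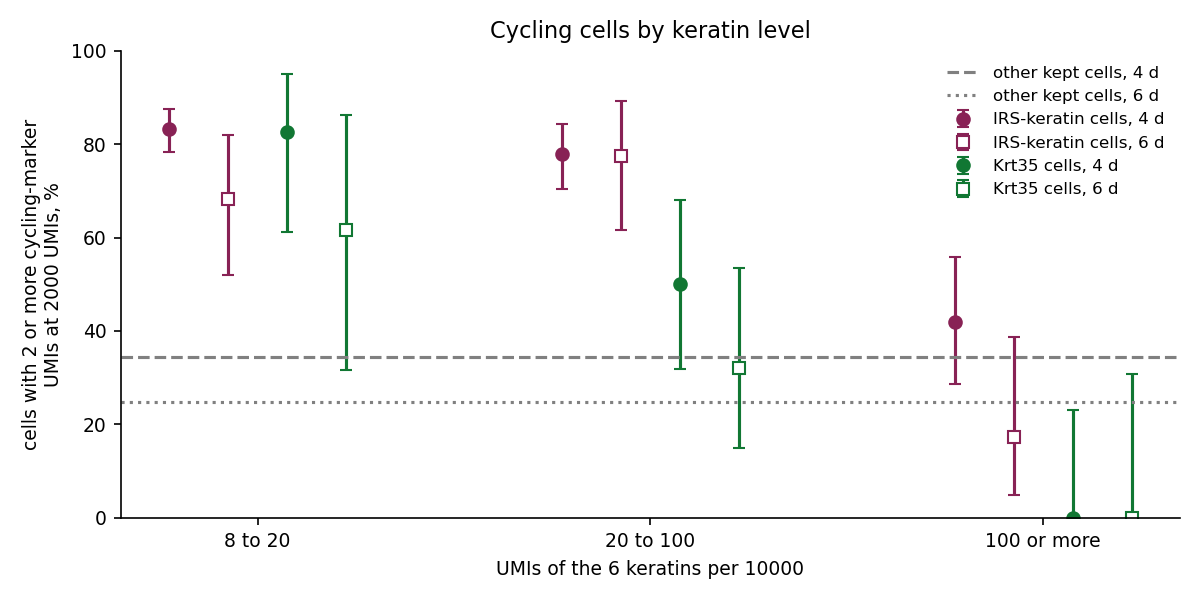
Share of cycling cells (percent, at least 2 UMIs of 10 markers after thinning to 2000 UMIs) by keratin UMIs per 10000 in IRS-keratin cells and Krt35 cells at 4 d (filled) and 6 d (open), with exact 95% intervals for counting error and the shares of the other kept cells as lines. The share is 83.3% and 82.6% in the lowest range at 4 d and 41.8% and 0% in the highest.

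Of the BCL-2 family, which controls cell death, none of 11 genes with enough counts was called between Krt35 and IRS-keratin cells. Mcl1, a survival gene of the family, stood at 104 CPM in IRS-keratin cells and 116 CPM in Krt35 cells at 4 d and at 111 CPM in both at 6 d, against 209 and 204 CPM in the other kept cells. These sums include the mixed barcodes. Over the keratin ranges of IRS-keratin cells Mcl1 stood at 97.5, 108 and 130 CPM at 4 d. At 6 d it stood at 97.7, 139 and 91.6 CPM, or 105, 124 and 56.3 CPM without the mixed barcodes. In Krt35 cells it stood at 100, 141.5 and 72.2 CPM at 4 d. At 6 d these cells gave 83.8, 131 and 82.9 CPM, or 103, 76.7 and 82.9 CPM without the mixed barcodes. Bcl2l1, which encodes BCL-XL, stood at 16.6 and 19.2 CPM at 4 d and at 17.0 and 38.6 CPM at 6 d in the same order. In Krt35 cells its call as higher at 6 d than at 4 d was lost without the mixed barcodes, where Pmaip1 and Bad were called lower. Bax, an effector of death, stood at 215 and 243 CPM and at 160 and 133 CPM, against 130 and 80.9 CPM in the other kept cells. Of 10 genes of the ERBB receptors and ligands Ereg was called higher, and without the mixed barcodes Areg was called lower in its place. In Krt28 cells 5 of 9 were lower than in Krt25, Krt71 and Krt73 cells, beside 7.07% of all tested genes, and 3 of 7 without the mixed barcodes. At 6 d against 4 d, 6 of 10 were higher in IRS-keratin cells and 8 of 10 in Krt35 cells, beside 7.85% and 10.4% of all tested genes. Without the mixed barcodes 2 of 8 and 0 of 5 were higher, and 1 was lower in each.

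Between 4 d and 6 d many genes differed past 2-fold, and much of this went with the mixed barcodes. In IRS-keratin cells 901 of 11474 genes were higher at 6 d (7.85%) and 941 lower (8.20%), and without the mixed barcodes 649 and 668, of which 425 and 476 were called both ways. In Krt35 cells 888 of 8525 were higher (10.4%) and 1370 lower (16.1%), and without the mixed barcodes 451 and 684, of which 198 and 487 were called both ways. Under median-ratio scaling the splits were 1059 higher and 740 lower in IRS-keratin cells and 1215 higher and 835 lower in Krt35 cells, as the median log2 ratio of all genes was −0.102 and −0.26. Each time point is 1 library, so these are differences between libraries.

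In IRS-keratin cells 7 of 14 further IRS genes were higher at 6 d and none lower. Without the mixed barcodes 5 were higher, with Tgm1 and Casp14 no longer called, and 1 was lower (Tgm3). The suprabasal epidermal list moved in the same direction, with 9 of 12 genes higher and 1 lower and a list median of 2.09 on the log2 scale, and without the mixed barcodes 7 were higher and 2 lower. Tchh went from 96.2 to 1493 CPM, a ratio of 15.5 (14.1 to 17.2), which was 9.31 without the mixed barcodes and 2.20 in the other kept cells. Prr9 went from 110 to 680 CPM and Padi3 from 10.5 to 58.7 CPM, and the keratins of the IRS cuticle Krt26 and Krt72 from 1.14 to 19.6 CPM and from 0.954 to 17.9 CPM. Crym went from 12.2 to 96.1 CPM. The make-up of the IRS-keratin cells also differed, with 307 of 471 Krt28 cells at 4 d and 30 of 106 at 6 d. Within Krt25, Krt71 and Krt73 cells the ratios were 5.14 (4.62 to 5.73) for Tchh, 3.08 for Prr9, 2.81 for Padi3 and 2.43 for Crym. These 4 ratios include the mixed barcodes, without which 129 of 142 cells remained at 4 d and 53 of 67 at 6 d. Within Krt28 cells, Wif1 went from 23.1 to 227 CPM, a ratio of 9.83 (7.07 to 13.7) that was 1.07 in the other kept cells, and Crym from 5.84 to 136 CPM.

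Other genes of IRS-keratin cells were lower at 6 d. Foxe1 went from 77.8 to 17.0 CPM, Hoxc13 from 61.2 to 19.6 CPM, the Hedgehog target Gli1 from 24.8 to 11.1 CPM, a call lost without the mixed barcodes, and Col14a1 from 16.6 to 0.85 CPM. In the other kept cells Foxe1 and Hoxc13 were lower at 6 d as well, with ratios of 0.164 and 0.402. Within Krt28 cells the ratios were 0.388 (0.0784 to 1.18, with 3 UMIs at 6 d) and 0.498, and within Krt25, Krt71 and Krt73 cells 0.119 and 0.666. Ctla2b, Col27a1, Gli2 and Hsd11b2 were also among the genes with the largest decreases, and Gli2, a Hedgehog transcription factor, went from 9.73 to 0.85 CPM. Ctsc differed less than 2-fold, with 336 and 266 CPM. The melanocyte genes Pmel and Trpm1, and Ptgds, were lower at 6 d in the full sums, and stood at 1.05, 0.422 and 0.843 CPM at 4 d once the mixed barcodes were left out. The largest increases, of Wfdc21, Sprr1b, Ereg, Car6, Gng13, Orm1 and Serpina12, rested on fewer than 10 UMIs over both libraries without them, and of the 8 leading genes Cnfn alone had more, with 105 CPM at 6 d against 2.32 CPM at 4 d.

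In Krt35 cells further hair keratins were higher at 6 d. Krt31 had 0 UMIs at 4 d and 62.7 CPM at 6 d, which is at least 14.2-fold higher, and at least 22.6-fold without the mixed barcodes. Krt33a had 0 UMIs and 25.7 CPM, Krt87 went from 11.8 to 33.7 CPM and Krt36 from 10.3 to 41.8 CPM. Krt32 went from 8.85 to 182 CPM, or to 39.4 CPM without the mixed barcodes, and Krt82 from 0 to 43.4 CPM, but had 0 UMIs without them. Of 8 hair keratins 6 were higher and none lower, and without the mixed barcodes 5 of 7. Selenbp1 went from 44.2 to 214 CPM, a ratio of 4.83 (3.23 to 7.44), against 0.677 in the other kept cells, and Dsg4 from 14.7 to 49.8 CPM.

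S100a3 went from 472 to 3607 CPM, with a ratio of 7.65 that was 3.32 without the mixed barcodes. Hoxc13 went from 721 to 360 CPM and its ratio of 0.499 became 0.641 without them, which ended the call. Msx1, Cldn10 and Shh were lower at 6 d. The calls of Shh stayed without the mixed barcodes, with a ratio of 0.480, whereas Msx1 and Cldn10 then stood at 0.669 and 0.538. Of the 10 cycling markers 8 were lower, but 1 without the mixed barcodes, where Mki67 went from 140 to 112 CPM. Of 12 suprabasal epidermal genes 11 were higher, with a list median of 5.90 on the log2 scale, and 7 of 10 without the mixed barcodes. Lor, a cornified envelope protein, went from 26.5 to 7277 CPM in full and from 26.4 to 152 CPM without the mixed barcodes, a ratio of 5.73 where the other kept cells gave 7.01. Crct1, Flg and Spink5, also of the cornified layers, led the increases with Lce1m, Lce1a1, Lce1b, Lce1d and Cnfn, and stood at 45.5, 9.09 and 0 CPM at 6 d without the mixed barcodes. Vim, the T cell gene Cd3g and the melanocyte gene Dct led the decreases and stood at 1.65, 1.65 and 38.0 CPM at 4 d without them. Ctla2a, Ccn1 and Tspan18 were also among them, and Ccn1 went from 76.7 to 6.43 CPM and Tspan18 from 66.3 to 8.03 CPM. Krt5 and Uhrf1, a factor of DNA replication, were lower with and without the mixed barcodes, with ratios of 0.175 and 0.168 in full and 0.370 and 0.268 without.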

How the data were processed

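The authors mixed cells of 2 mice per time point, made 1 library each on the 10x Chromium 3′ system and, per the labels, counted reads with Cell Ranger 6.1.2 on mm10. They deposited filtered matrices of raw UMI counts for 32285 genes, with no normalization. The sources used here do not give the treatment of intronic reads. The members and gene lists were chosen with earlier results of these data known, and the Krt28 comparison and the definition of mixed barcodes after the data were seen.

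Counts were summed over the cells of a group in each library and scaled to CPM in Python 3.11.15 with numpy 2.4.6, scipy 1.17.1 and pandas 2.3.3. Cells of 1 library are not replicates, so no test was made and no p-value is given. A gene was called at a 2-fold ratio among genes with at least 10 UMIs over both sums, in both libraries where groups were compared within them, with a sum of 0 UMIs set at 3. Intervals are exact Clopper-Pearson for shares and exact Poisson for CPM, at 95%. Doublets were scored with Scrublet in scanpy 1.11.5 at 0.8% per 1000 barcodes and left out as an alternative only. Symbols that occur more than once (38) were left out. The genes named are drawn from, within each comparison, the 12 per direction (8 for 6 d against 4 d) with the largest ratio among called genes with at least 50 UMIs, the smaller of the 2 libraries' ratios where both were used, and the called or most abundant genes of each list. Alternatives were other keratin limits, thinning, scalings, folds, count minimums, and leaving out doublets or mixed barcodes. Some genes that the rule selects are not reported here.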

Additional observations from a re-analysis of the deposited data

How the results depend on the processing

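The main shares, the counts of genes and the rule-selected genes that could be fitted gave 578 settings. Of these 534 left a value unchanged, 43 moved it and 1 weakened a call. Unchanged means within its interval, within 1.5 times its count or, for a gene, still past the fold. Rule-selected genes, picked here for large ratios, gave 301 settings for Krt35 against IRS-keratin cells. They gave 38 for Krt28 cells and 52 for each group at 6 d against 4 d. A lower fold or another count minimum could not change their ratios. No direction of a rule-selected gene turned. The balance of higher and lower counts turned for Krt35 against IRS-keratin cells at 1 UMI, and for 6 d against 4 d in both groups under median-ratio scaling. Rule-selected genes with too few UMIs under a setting gave no value there, mostly without mixed barcodes. The share of keratin-bearing cells at 4 d was 2.36% at a limit of 16 per 10000, 5.80% at 4 per 10000 and 4.81% after thinning, and at 6 d 1.14%, 1.92%, 1.35% without doublets and 1.32% without mixed barcodes. For the last value mixed barcodes were left out of the keratin-bearing cells but not of all kept cells, so it could only fall. With them left out of both, 131 keratin-bearing cells stood beside 7090 other kept cells at 6 d. The Krt35 share at 4 d was 17.8% at 16 per 10000. The cycling share at 4 d was 65.0% at 16 per 10000, 90.2% without thinning, 85.0% from 1 marker UMI and 61.0% from 4, and at 6 d 44.0%, 75.2%, 67.3% and 39.9%. Krt35 against IRS-keratin cells gave 389 higher and 766 lower at 1.5-fold, 68 and 88 at 3-fold, 1235 and 335 at a minimum of 1 UMI, and 52 and 85 at 50 UMIs. Krt28 cells gave 159 and 333 without mixed barcodes. At 50 UMIs, 6 d against 4 d gave 405 and 411 in IRS-keratin cells and 280 and 314 in Krt35 cells, where median-ratio scaling gave 835 lower and leaving out mixed barcodes 451 and 684. The call of Dct in Krt35 cells was lost without mixed barcodes, where it was 1.04-fold lower at 6 d. The causes were not tested beyond these changes. No paired analysis was possible because each time point is 1 library. The 50 Krt35 cells at 6 d hold 622346 UMIs, so genes below a few CPM were not detectable there at this depth.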
